A study of Rattus norvegicus with 10 samples.

Results

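The glucocorticoid receptor gene Nr3c1 and 6 genes known to be induced through it, Tsc22d3, Fkbp5, Sgk1, Zbtb16, Klf9 and Dusp1, were described in mammary tumours of female Sprague-Dawley rats, an outbred strain. A gene was read by the probe sets that the platform annotation gives to it alone, and the probe set with the highest mean log2 signal over all arrays represented it. Of the 7 genes, out of 14217 genes named in this way, 6 had a probe set and all 6 passed the filter on dim signals. Zbtb16 was named on no probe set and is not analysed here, so every count below is over Nr3c1 and 5 targets. The 6 genes had 11 probe sets, 10 of them past the filter.

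All tumours had been induced with a single oral dose of DMBA (7,12-dimethylbenz(a)anthracene, a carcinogenic hydrocarbon) at 100 mg/kg body weight, and the labels name no further treatment in either group. The total tumours were collected at sacrifice, at an age of 19 weeks. The biopsies were needle cores of 0.7 cm by 2.5 mm, taken at 12 weeks when the tumour measured 2 cm3. Every tumour gave 1 array per group; the 5 carry the names 31D3, 32D1, 37I1, 50I1 and 52I4, and the study asked how a tumour at the end differed from its own early biopsy. The tumours had been selected by histology (Bloom-Richardson grade II), and the labels do not say whether they came from different rats. The sample labels call the late sample a total tumour, while the series text calls both samples trucut (a needle core), so it is not settled whether the way of sampling differed. Age, the numbering of the arrays and any such difference went with the group, and these cannot be told apart from it. The hour of sampling is not given in the sources used here.

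The 10 arrays had log2 medians between 5.99 and 6.11, and any pair of arrays correlated at 0.952 to 0.989 (Pearson r across probe sets). All 12 epithelial markers examined, among them Krt8, Krt18 and Epcam, were above the filter limit, with a mean log2 signal between 11.4 and 11.9 in every array. Precision is limited by the small number of arrays.

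Glucocorticoids enter cells and bind the receptor, which waits in the cytoplasm in a complex with heat shock proteins and immunophilins. The bound receptor moves to the nucleus and raises or lowers transcription, either on DNA elements built from a repeated hexamer or through other transcription factors. In the mammary gland the hormone acts with prolactin and insulin in milk protein synthesis and in keeping epithelial cells alive, and in lymphocytes and macrophages it restrains inflammation. The progesterone and mineralocorticoid receptors can bind the same kind of element, so most of these targets are not read-outs of the glucocorticoid receptor alone.

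In these tumours the receptor transcript stayed within narrow bounds while its targets varied widely, and the targets differed in opposite directions in different tumours. In 37I1 all 5 targets had more signal in the total tumour than in the biopsy, while in 50I1 and in 52I4 all 5 had less. Fkbp5 had the widest swing, 4.51-fold higher in the total tumour of 37I1 and 5.05-fold lower in that of 52I4. Averaged over the 5 pairs, the 5 targets had lower means in the total tumours, by 0.20 to 0.61 on the log2 scale, and Nr3c1 a higher mean, by 0.20. None of these mean differences passed the test.

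**Figure D1:**
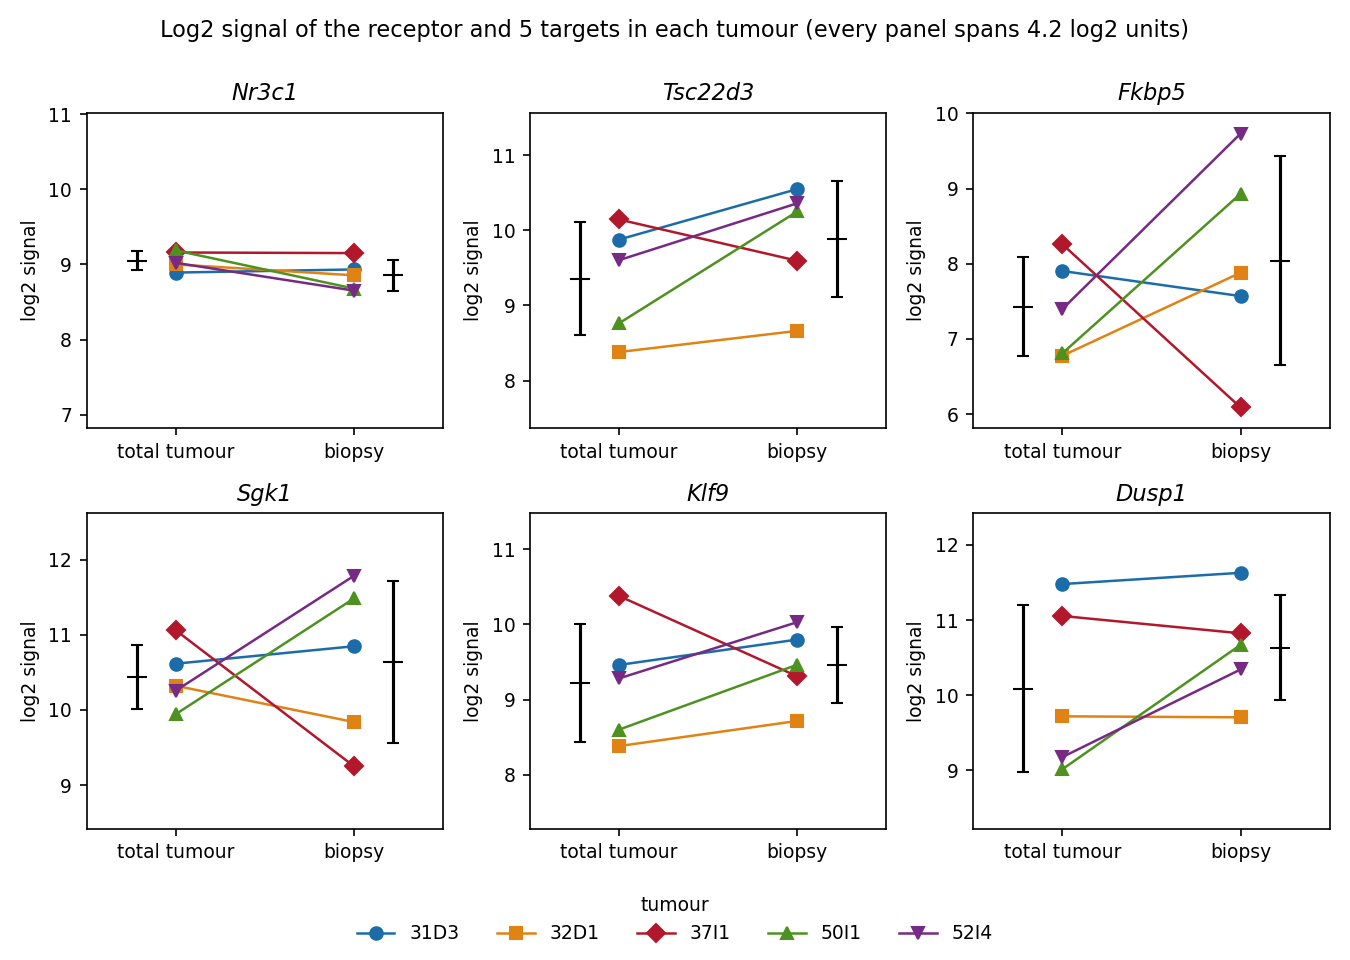
Log2 signal (y axis) of the 6 measured genes in the total tumour and the biopsy (x axis) of each of 5 tumours, joined by a line per tumour; black bars give the group mean ± SD (n = 5). Nr3c1 lies within 8.65 to 9.19, while the Fkbp5 lines cross, with 37I1 the highest of the total tumours and the lowest of the biopsies.

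Promoter sequences of the targets are shown first, because the targets share induction by the same receptor and its DNA element can be searched for as letters. RefSeq (build GRCr8) gives 11 start sites for the 6 measured genes, each with a window from 250 bases before to 50 bases after the start. For Fkbp5, Sgk1, Tsc22d3 and Dusp1 a window follows, 5′ to 3′, all from the strand of the gene, with capitals for the searched motifs that were found. These motifs were the receptor hexamer TGTTCT, the full palindrome (that hexamer and its reverse complement around 3 free bases, so it holds the hexamer), the cyclic AMP element TGACGTCA and the TATA box TATAAA, each on both strands.
Fkbp5 (chr20:6543506-6543805, minus strand): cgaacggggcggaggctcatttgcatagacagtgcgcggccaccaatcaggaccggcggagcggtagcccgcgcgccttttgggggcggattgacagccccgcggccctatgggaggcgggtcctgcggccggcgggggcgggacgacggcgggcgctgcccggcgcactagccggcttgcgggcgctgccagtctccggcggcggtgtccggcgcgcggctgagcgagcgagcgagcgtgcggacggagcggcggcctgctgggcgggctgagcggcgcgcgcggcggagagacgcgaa
Sgk1 (chr1:24804782-24805081, minus strand): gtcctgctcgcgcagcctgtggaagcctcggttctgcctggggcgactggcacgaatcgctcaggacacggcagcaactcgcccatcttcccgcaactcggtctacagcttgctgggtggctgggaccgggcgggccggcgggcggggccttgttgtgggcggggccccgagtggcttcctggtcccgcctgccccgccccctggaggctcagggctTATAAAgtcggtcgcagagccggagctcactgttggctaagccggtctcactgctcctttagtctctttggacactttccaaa
Tsc22d3 (chrX:109009985-109010284, minus strand): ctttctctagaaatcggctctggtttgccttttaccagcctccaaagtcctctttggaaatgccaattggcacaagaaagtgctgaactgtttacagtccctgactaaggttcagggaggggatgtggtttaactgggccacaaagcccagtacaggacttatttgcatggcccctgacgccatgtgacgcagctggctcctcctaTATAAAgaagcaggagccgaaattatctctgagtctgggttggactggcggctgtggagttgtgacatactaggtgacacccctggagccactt
Dusp1 (chr10:17184603-17184902, plus strand): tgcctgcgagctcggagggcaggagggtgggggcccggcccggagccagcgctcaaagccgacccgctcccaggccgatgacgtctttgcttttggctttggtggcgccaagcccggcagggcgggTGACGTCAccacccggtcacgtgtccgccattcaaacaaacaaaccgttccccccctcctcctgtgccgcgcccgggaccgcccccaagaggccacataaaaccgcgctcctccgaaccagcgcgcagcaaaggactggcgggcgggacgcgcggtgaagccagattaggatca

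The hexamer was in 0 of the 11 windows, against 20.7% of all 33469 promoter windows of the same length, and the palindrome was in 0 of 11, against 0.0149% of all windows. That says only that these letters are not in the windows, since elements known to bind the receptor often lie farther upstream or in introns. The cyclic AMP element was in 1 of the 11 windows, that of Dusp1, where it covers positions -124 to -117 from the start site, and in 1.83% of all windows. A TATA box was in 3 of 11, in 2 windows of Sgk1 and 1 of Tsc22d3, and in 14.2% of all windows. Of the windows shown, guanine and cytosine made up 77.0% for Fkbp5, 68.0% for Dusp1, 66.0% for Sgk1 and 50.7% for Tsc22d3. The windows not shown had 66.0% and 79.0% for Nr3c1, 65.3% for Klf9, 40.7% and 51.7% for Sgk1, and 52.0% and 73.0% for Tsc22d3. The median of all windows was 51.7%. Which start site the arrays read was not tested.

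Nr3c1, the receptor itself, had log2 signals of 8.89, 9.001, 9.16, 9.19 and 9.02 in the total tumours of 31D3, 32D1, 37I1, 50I1 and 52I4, against 8.93, 8.86, 9.15, 8.68 and 8.65 in their biopsies. The biopsies of 50I1 and 52I4 were the lowest of the 10 arrays and the groups overlapped. The mean was 9.05 ± 0.12 in total tumours and 8.85 ± 0.20 in biopsies (SD, n = 5 each), a difference of 0.20 (SE 0.115), higher in 4 of 5 pairs (limma with the tumour as a block, adjusted p = 0.850). Its SD over the 10 arrays was larger than that of 34.0% of the 10793 genes tested. A second probe set of Nr3c1, with a mean of 5.18 close to the filter limit of 5.15, differed by 0.04 (SE 0.140) and had the same sign as the first in 2 of 5 pairs.

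The background for the test was empty: limma called 0 of 18625 probe sets (0%) at an adjusted p under 0.05, and so 0 of the 6 genes here. An unadjusted p under 0.05 was reached by 6.08% of the probe sets and 4.17% of the 10793 genes, and by none of the 6 genes. With a plain paired test, as in the methods, 0 probe sets passed after adjustment and 1013 did unadjusted. Groups that did not overlap were found for 0.417% of all genes and for none of these 6. A lower mean in total tumours was seen for 48.8% of all genes and for 5 of these 6. The same sign in 5 of 5 pairs was seen for 5.83% of all genes, 2.41% higher and 3.42% lower, and for 0 of these 6.

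Fkbp5 encodes an immunophilin that sits in the receptor complex and lowers its affinity for hormone, which makes it both a target and a feedback inhibitor. Its log2 signals were 7.90, 6.78, 8.26, 6.81 and 7.40 in the total tumours of 31D3, 32D1, 37I1, 50I1 and 52I4, against 7.57, 7.88, 6.09, 8.93 and 9.73 in their biopsies. The biopsies of 52I4 and 50I1 were the highest of the 10 arrays and the biopsy of 37I1 the lowest, so the biopsies enclosed all total tumours. The biopsies spanned 12.5-fold and the total tumours 2.80-fold. The mean was 7.43 ± 0.66 in total tumours and 8.04 ± 1.39 in biopsies (SD, n = 5 each), a difference of -0.61 (SE 0.667; adjusted p = 0.918 in limma), lower in 3 of 5 pairs. A second probe set of Fkbp5 gave -0.62 (SE 0.614) and the same sign in 5 of 5 pairs.

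Sgk1 encodes a kinase that glucocorticoids and mineralocorticoids induce and that keeps sodium channels at the cell surface and promotes survival. Its log2 signals were 10.62, 10.32, 11.06, 9.94 and 10.26 in the total tumours of 31D3, 32D1, 37I1, 50I1 and 52I4, against 10.85, 9.84, 9.25, 11.48 and 11.79 in their biopsies. As for Fkbp5, the biopsies of 52I4 and 50I1 were the highest arrays and that of 37I1 the lowest. The mean was 10.44 ± 0.42 in total tumours and 10.64 ± 1.08 in biopsies (SD, n = 5 each), a difference of -0.20 (SE 0.506; adjusted p = 0.968 in limma). That sign turned to 0.13 without 50I1 and to 0.13 without 52I4, so the mean difference of Sgk1 has no settled direction. The SD of the biopsies over that of the total tumours was 2.56 for Sgk1, a ratio reached by 6.98% of all genes, and 2.11 for Fkbp5, reached by 12.5%. Over all genes, 59.2% had the larger SD in the biopsies.

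Tsc22d3 encodes the leucine zipper protein GILZ, which carries part of the anti-inflammatory action of glucocorticoids. Its log2 signals were 9.88, 8.38, 10.14, 8.76 and 9.60 in the total tumours of 31D3, 32D1, 37I1, 50I1 and 52I4, against 10.55, 8.66, 9.59, 10.25 and 10.36 in their biopsies. Both samples of 32D1 were among the 3 lowest arrays, together with the total tumour of 50I1. The mean was 9.35 ± 0.75 in total tumours and 9.88 ± 0.77 in biopsies (SD, n = 5 each), a difference of -0.53 (SE 0.274; adjusted p = 0.846 in limma), lower in 4 of 5 pairs. Of all genes, 20% were lower in at least 4 of 5 pairs.

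Klf9 encodes a zinc finger repressor that is induced by glucocorticoids and also follows the circadian clock. Its log2 signals were 9.46, 8.38, 10.38, 8.601 and 9.28 in the total tumours of 31D3, 32D1, 37I1, 50I1 and 52I4, against 9.80, 8.72, 9.31, 9.46 and 10.03 in their biopsies. The same 3 arrays as for Tsc22d3 were the lowest, and here the total tumour of 37I1 was the highest. The mean was 9.22 ± 0.79 in total tumours and 9.46 ± 0.50 in biopsies (SD, n = 5 each), a difference of -0.24 (SE 0.283; adjusted p = 0.922 in limma), lower in 4 of 5 pairs. A second probe set differed by -0.29 (SE 0.194) with the same sign in 5 of 5 pairs, and the third had a mean of 3.67, under the filter limit of 5.15.

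Dusp1 encodes a phosphatase that switches off p38 and JNK, and it responds within minutes to glucocorticoids and to stress. Its log2 signals were 11.48, 9.72, 11.06, 9.02 and 9.18 in the total tumours of 31D3, 32D1, 37I1, 50I1 and 52I4, against 11.63, 9.71, 10.82, 10.67 and 10.34 in their biopsies. Both samples of 31D3 were the highest, those of 32D1 were nearly equal, and only 50I1 and 52I4 had a large difference, of -1.66 and -1.17. The mean was 10.09 ± 1.12 in total tumours and 10.64 ± 0.70 in biopsies (SD, n = 5 each), a difference of -0.55 (SE 0.300; adjusted p = 0.846 in limma). A second probe set gave -0.57 (SE 0.293) and the same sign in 5 of 5 pairs.

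**Figure D2:**
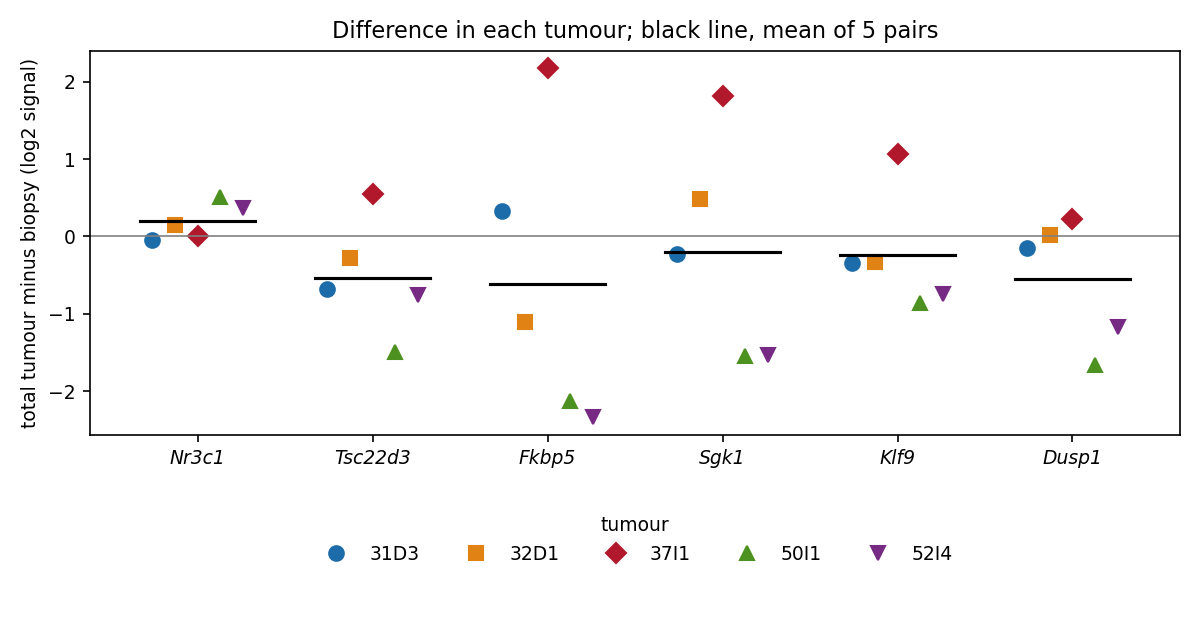
Total tumour minus biopsy in log2 signal (y axis) for each of the 6 genes (x axis), 1 symbol per tumour, with the mean of 5 pairs as a black line. The 37I1 symbol is above 0 for all 6 genes, and the 50I1 and 52I4 symbols are below 0 for the 5 targets and above 0 for Nr3c1.

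Set side by side by tumour, the 5 targets had a median difference of 1.07 in 37I1, with 5 of 5 higher in the total tumour. It was -1.54 in 50I1 and -1.17 in 52I4, with 5 of 5 lower in each. In 31D3 and 32D1 the medians were -0.23 and -0.28, with 4 and 3 of 5 lower. Over all tested genes the median lay between -0.01 and 0.004 in every tumour, and the median size of a difference, whatever its sign, between 0.18 and 0.30. Being higher in 37I1 and lower in both 50I1 and 52I4, a pattern named after these values were seen, held for 18.4% of all genes. With a size of at least 1 on the log2 scale in each of these tumours it held for 55 genes, 0.51% of all, and Fkbp5 and Sgk1 were among them. The range of the pair differences was 4.51 for Fkbp5 and 3.35 for Sgk1, which 1.04% and 2.9% of all genes reached. For Tsc22d3, Klf9 and Dusp1 it was 2.04, 1.93 and 1.89, reached by 10.3% to 12.1% of genes, and for Nr3c1 0.55, reached by 67.1%.

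**Figure D3:**
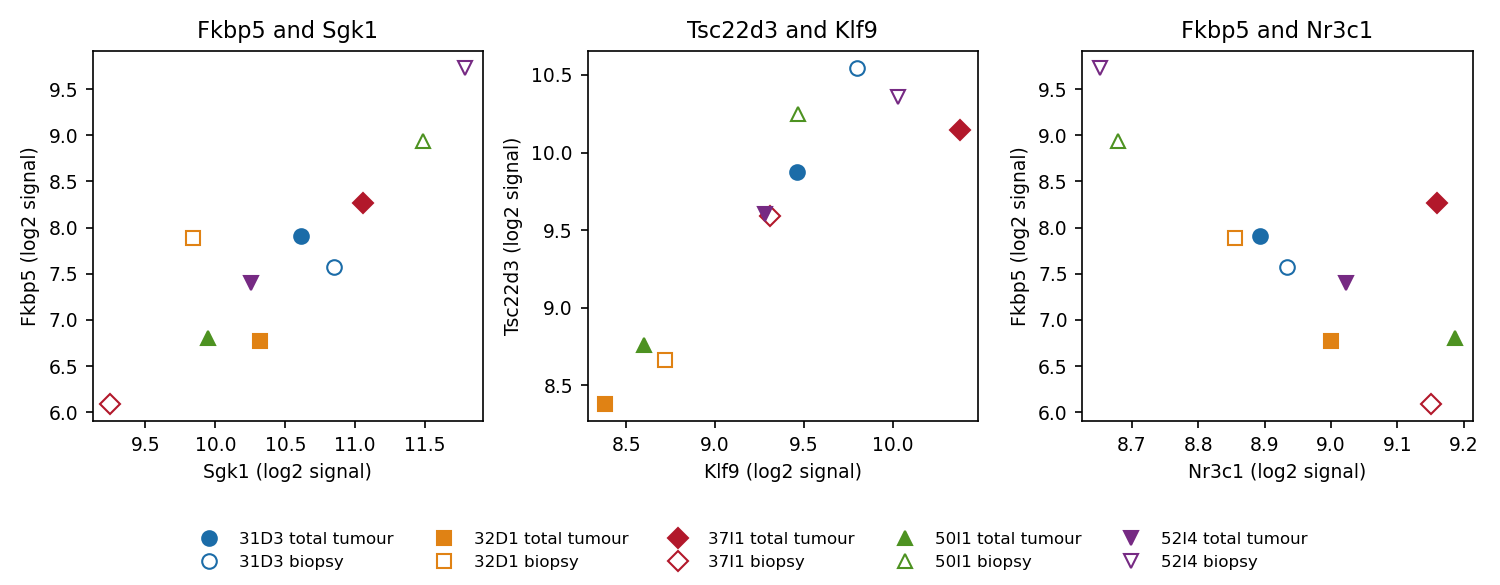
Log2 signals of Fkbp5 against Sgk1, Tsc22d3 against Klf9 and Fkbp5 against Nr3c1, 1 point per array (filled, total tumour; open, biopsy; colour and shape, tumour). Fkbp5 and Sgk1 lie along a rising line (r = 0.89), as do Tsc22d3 and Klf9 (r = 0.91), and Fkbp5 and Nr3c1 along a falling line (r = -0.79).

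Over the 10 arrays, which are 5 pairs and therefore not independent, likeness between the 6 genes is given as a description, with no test. Tsc22d3 and Klf9 had a Pearson r of 0.91 (Spearman rho 0.89), and Fkbp5 and Sgk1 one of 0.89 (rho 0.82). Out of all genes tested, only 4 were more like Sgk1 than Fkbp5 was, 11 were more like Fkbp5 than Sgk1 was, and 13 were more like Klf9 than Tsc22d3 was. Dusp1 was nearer to Tsc22d3 (r = 0.72) and Klf9 (r = 0.67) than to Sgk1 (r = 0.35) or Fkbp5 (r = 0.23). Nr3c1 had a negative r with all 5 targets, from -0.79 with Fkbp5 and -0.67 with Sgk1 to -0.38 with Tsc22d3, -0.20 with Klf9 and -0.19 with Dusp1. By Spearman rho the values of Nr3c1 with these targets were -0.65, -0.50, -0.38, -0.27 and -0.18 in the same order. In the biopsies of 50I1 and 52I4 Nr3c1 was lowest and Fkbp5 highest, and in that of 37I1 Fkbp5 was lowest with Nr3c1 at 9.15. All arrays share the authors' normalization, which brings them close to 1 distribution, with log2 medians between 5.99 and 6.11.

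For each gene the 3 genes with the highest Pearson r over the 10 arrays are given. For Dusp1 they were Vat1 (r = 0.95), Zfp36 (r = 0.95) and Asb2 (r = 0.95). Zfp36 encodes the mRNA decay factor tristetraprolin, which glucocorticoids and stress also induce, and it differed by -1.39 in 50I1 and -1.20 in 52I4. For Fkbp5 they were Riok1 (r = 0.94) and Kri1 (r = 0.94), which serve ribosome assembly, and the prolyl isomerase gene Pin4 (r = 0.92). For Sgk1 they were the myosin chaperone gene Unc45a (r = 0.92), Rab4b (r = 0.91) and Selenos (r = 0.91), a selenoprotein of the endoplasmic reticulum. For Tsc22d3 they were the tubulin chaperone gene Tbce (r = 0.97), Git2 (r = 0.94) and the autophagy kinase gene Ulk2 (r = 0.94), and for Klf9 Fance (r = 0.95), Rab24 (r = 0.95) and Ccser1 (r = 0.95). For Nr3c1 they were Dolpp1 (r = 0.94), Lce3b (r = 0.93) and Mdga1 (r = 0.93). Likeness ignores size: the pair differences of Tbce lay between -0.20 and 0.05, where those of Tsc22d3 lay between -1.49 and 0.55. Choosing 3 of 10793 genes over 10 arrays brings up high values of r in any case.

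The genes that supply and share the hormone signal were next. Hsd11b1, whose enzyme turns inactive 11-keto steroid into active glucocorticoid, had a log2 signal of 10.11 ± 0.79 in total tumours and 9.94 ± 0.87 in biopsies (SD, n = 5 each). Its pair differences had the signs of the targets in 37I1 (1.85), 50I1 (-0.87) and 52I4 (-0.24), with 0.78 in 31D3 and -0.68 in 32D1. Hsd11b2, whose enzyme inactivates the hormone, differed by -0.65 (SE 0.256; adjusted p = 0.798 in limma), lower in 4 of 5 pairs. H6pd, which supplies cofactor to the first enzyme, differed by 0.39 (SE 0.179). Of 5 such genes besides Nr3c1 that passed the filter, 3 had higher and 2 lower means, 0 passed after adjustment, and the median was 0.17. The progesterone receptor Pgr, which can act on the same elements, was lower in 5 of 5 pairs by -1.27 (SE 0.274; adjusted p = 0.642 in limma), also in 37I1 (-0.74), where the 5 targets were higher. The mineralocorticoid receptor Nr3c2 differed by 0.17 (SE 0.174).

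Chaperones and coregulators of the receptor showed small differences. Of 9 chaperone genes besides Fkbp5, 4 had higher and 5 lower means, with a median of -0.01. Fkbp4, the immunophilin that helps the receptor reach the nucleus, had 10.20 ± 0.20 in total tumours and 10.44 ± 0.20 in biopsies (SD, n = 5 each). It was lower in 5 of 5 pairs, by -0.03 to -0.59, and did not follow the crossing of Fkbp5. The immunophilin gene Ppid differed by -0.13 (SE 0.130) and the heat shock gene Hspa4 by -0.10 (SE 0.112). Of 10 coregulators, 2 had higher and 8 lower means, with a median of -0.13. The acetyltransferase Ep300 differed by -0.27 (SE 0.102), the coactivator Ncoa3 by -0.21 (SE 0.101) and the corepressor Nrip1 by 0.28 (SE 0.143), and 0 genes of either list passed after adjustment.

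Of 37 other genes known to be induced by glucocorticoids, 32 passed the filter. Their means were higher in 20 and lower in 12, with a median of 0.15 against 0.004 over all genes, and this median was -0.03 without 37I1 and 0.04 without 31D3. No gene passed after adjustment, and 4 were higher at an unadjusted p under 0.05, where 1.61% of all genes were. By tumour the list medians were 0.30 in 31D3, -0.25 in 32D1, 0.63 in 37I1, -0.07 in 50I1 and -0.20 in 52I4. In 37I1, 26 of 32 were higher, while in 50I1 and in 52I4 19 of 32 were lower.

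Within that list some genes had the tumour pattern of the targets and others did not. The sign pattern of the targets in 37I1, 50I1 and 52I4 was held by 12 of 32 genes, 37.5%, beside 18.4% of all genes. Nfkbia, the inhibitor of NF-kappaB, differed by 1.03 in 37I1, -0.85 in 50I1 and -0.97 in 52I4. The clock gene Per1 differed by 0.65, -0.57 and -0.91 in the same tumours and by -0.64 in 31D3 and -0.44 in 32D1. By contrast Pdk4, a kinase that spares glucose, was higher in 5 of 5 pairs, by 0.24 to 2.71, with a mean of 1.11 (SE 0.371; adjusted p = 0.705 in limma). Angptl4, a secreted inhibitor of lipoprotein lipase, differed by 1.12 (SE 0.318; adjusted p = 0.657 in limma) and was lower only in 32D1, by -0.09. The cell cycle inhibitor Cdkn1a differed by 0.45 (SE 0.120), the anti-inflammatory annexin Anxa1 by 0.32 (SE 0.128), the transcription factor Cebpd by 0.55 (SE 0.264) and the metallothionein Mt2A by 0.61 (SE 0.338). Pdk4 and Angptl4 are also induced by fatty acids, and Angptl4 and Cdkn1a by other stresses.

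Inflammatory genes known to be repressed by glucocorticoids were higher in 7 and lower in 6 of 13 that passed the filter, with a median of 0.12. Their medians were 1.0004 in 31D3, -0.39 in 32D1, 0.93 in 37I1, -0.78 in 50I1 and -0.47 in 52I4. So in the last 3 tumours they had the same sign as the induced targets. In 32D1 they had the sign of the target median, and in 31D3 the opposite sign. The chemokine Cxcl2 was higher in 5 of 5 pairs by 0.76 (SE 0.173). Its signal lay under the filter limit in the biopsies of 31D3, 32D1, 50I1 and 52I4, at 4.40, 5.01, 4.41 and 3.74. The total tumour of 52I4, at 4.04, was under that limit too. Only 37I1 had both samples above it, with a Cxcl2 difference of 0.68. Mmp13, a collagenase, differed by 1.10 (SE 0.535), and Nos2, a nitric oxide synthase, by 0.22 (SE 0.111), none past adjustment. Of 16 paralogues of the 7 listed genes, Zbtb16 included, 9 had higher and 7 lower means with a median of 0.12, and Klf10, a relative of Klf9, was higher in 5 of 5 pairs by 0.65 (SE 0.197). Dusp5, a relative of Dusp1, differed by -0.30 (SE 0.142).

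Immediate early genes and clock genes were examined because Dusp1 and Klf9 belong to these programmes too. Of 19 immediate early genes, 7 had higher and 12 lower means, with medians of 1.11 in 31D3, -0.24 in 32D1, -0.24 in 37I1, -0.56 in 50I1 and -0.27 in 52I4. In 31D3, 17 of 19 were higher, while Dusp1 differed by -0.15 there. Fos differed by -0.36 (SE 0.244), Ier3 by -0.52 (SE 0.184) and Ier5 by 0.44 (SE 0.156). Of 16 clock genes, 7 had higher and 9 lower means, with a median of -0.33, and 6 were lower at an unadjusted p under 0.05, where 2.56% of all genes were. Per3, Per2 and Dbp were lower in 5 of 5 pairs, also in 37I1 by -0.69, -0.57 and -0.81, where Klf9 and Per1 were higher.

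**Figure D4:**
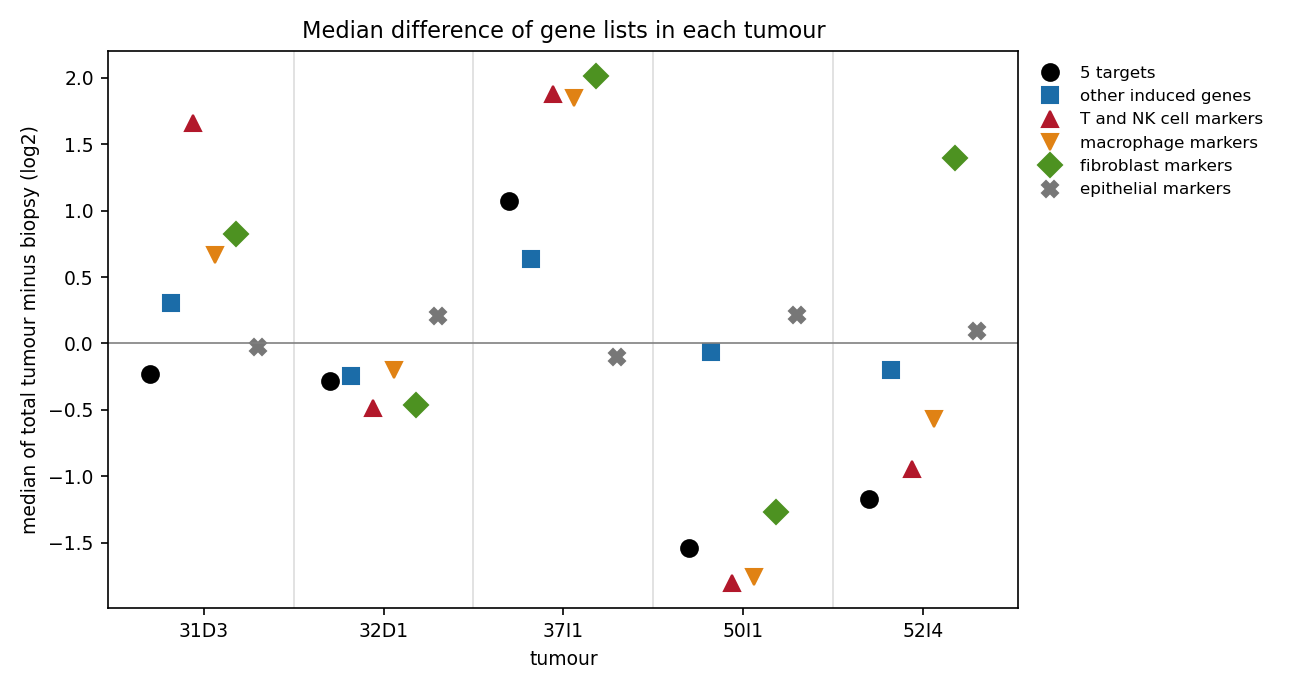
Median of total tumour minus biopsy (y axis, log2) over the genes of 6 lists in each tumour (x axis). In 37I1 and 50I1 the 5 targets, the T and NK cell markers, the macrophage markers and the fibroblast markers had the same sign, while in 52I4 the fibroblast markers were at 1.39 and the targets at -1.17.

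Markers of other cell types moved with the targets in part, and in such bulk samples fewer cells of a type and less RNA per cell cannot be told apart. The median of 11 T and NK cell markers was 1.66 in 31D3, -0.49 in 32D1, 1.87 in 37I1, -1.80 in 50I1 and -0.95 in 52I4, and 10 of 11 had the sign pattern of the targets in the last 3. The median of 10 macrophage markers was 0.66, -0.20, 1.85, -1.76 and -0.56 in the same order of tumours, with 9 of 10 in that pattern. Of these genes Cd163 is also in the induced list. In 31D3 both lists were higher in the total tumour while 4 of 5 targets were lower, so there the targets did not go with them.

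All 11 T and NK cell and 10 macrophage markers with a probe set passed the filter, which uses the mean over all arrays. In the biopsy of 37I1, however, 7 of the 11 T and NK cell markers (among them Cd3d at 4.96 and Cd8a at 4.54) and 1 of the 10 macrophage markers (Cd163 at 3.93) lay under its limit of 5.15, and the list medians of 37I1 rest on that array. The summed linear signal of the T and NK cell list lay between 1084 and 8489 in total tumours and between 488 and 3327 in biopsies. That of the macrophage list lay between 10599 and 26270 in total tumours and between 7823 and 24524 in biopsies. Fibroblast markers, 10 of 10 measured, summed to 19762 to 48325 in total tumours and 4431 to 49043 in biopsies. Their medians were 0.82 in 31D3, -0.46 in 32D1, 2.01 in 37I1, -1.27 in 50I1 and 1.39 in 52I4. A higher mean in total tumours was seen for 10 of these 10 and for 5521 of the 10793 genes tested. Mast cell markers, 9 of 9 measured, had lower means in 8, of which 7 at an unadjusted p under 0.05 and 0 after adjustment. Of all genes, 48.8% had a lower mean and 2.56% were lower at an unadjusted p under 0.05. The mast cell markers summed to 2397 to 19735 in total tumours and 6275 to 22133 in biopsies. Their medians were below 0 in all 5 tumours, from -0.15 in 32D1 to -1.27 in 52I4. Epithelial medians stayed between -0.10 and 0.21 in every tumour. Of 9 adipocyte markers with a probe set, Adipoq, Plin1, Lep and Cidec were under the filter limit. The other 5 had medians of -0.26 in 31D3, 0.10 in 32D1, 0.33 in 37I1, -0.55 in 50I1 and 0.96 in 52I4. Among these Fabp4 differed by 4.28 and Cfd by 4.11 in 37I1, and Cfd by -1.80 in 50I1. In the biopsy of 37I1 Fabp4 was at 3.74 and Pparg at 5.002, under the filter limit of 5.15. Of 9 endothelial markers, 7 had higher and 2 lower means, with medians of 0.83 in 31D3, -0.49 in 32D1, 0.43 in 37I1, -0.87 in 50I1 and 0.90 in 52I4. Jchain, the only plasma cell marker past the filter, differed by 3.76 in 37I1, -2.92 in 50I1 and -0.93 in 52I4. Those values had the signs of the targets. In 31D3 and 32D1 Jchain differed by 2.31 and 0.83, opposite in sign to the target medians there. It was at 5.12 in the biopsy of 37I1, just under the filter limit. Smooth muscle markers had lower means in 8 of 8, of which 3 at an unadjusted p under 0.05 and 0 after adjustment. The shares of all genes are those given beside the mast cell markers. Smooth muscle medians were -0.97 in 37I1 and 0.11 in 50I1, opposite in sign to the targets there. In 31D3, 32D1 and 52I4 they were -0.50, -0.15 and -0.43, with the sign of the target medians. The part of these cells in the differences of Fkbp5, Sgk1, Tsc22d3, Klf9 and Dusp1 was not tested.

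**Figure D5:**
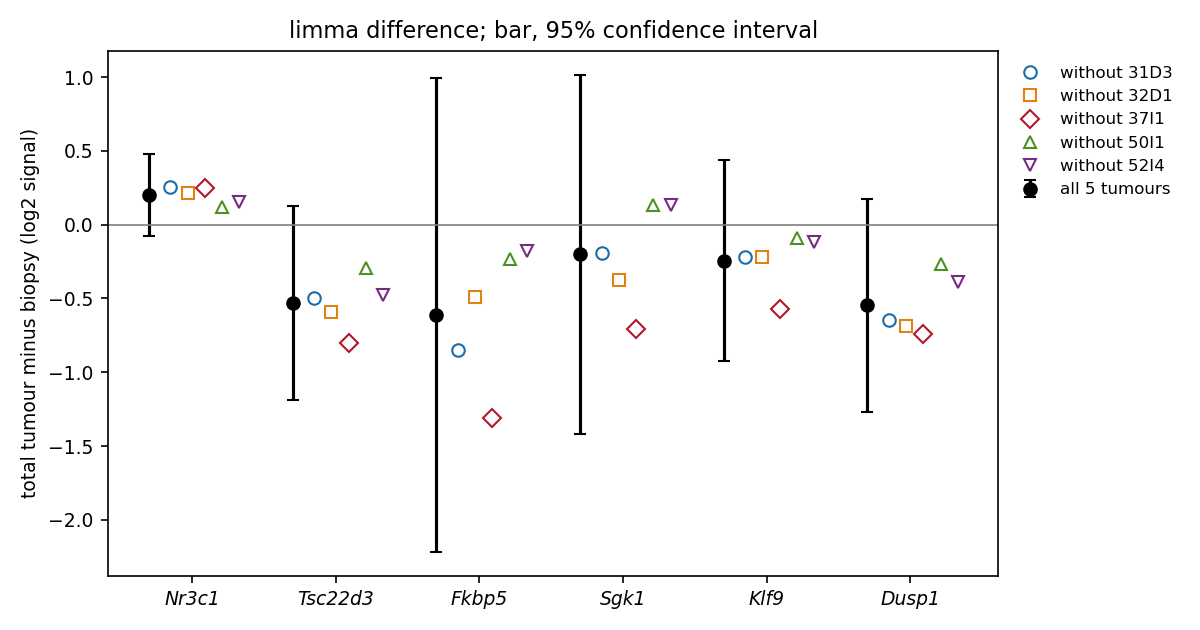
limma difference of total tumour minus biopsy (y axis, log2) for each gene (x axis), with all 5 tumours (black, 95% confidence interval) and without each tumour in turn (open symbols). Leaving out 37I1 gave the lowest value for each of the 5 targets, and every interval with all tumours includes 0.

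The 95% confidence intervals of the mean differences were -2.22 to 0.99 for Fkbp5, -1.42 to 1.02 for Sgk1, -1.19 to 0.13 for Tsc22d3, -0.92 to 0.44 for Klf9, -1.27 to 0.18 for Dusp1 and -0.08 to 0.48 for Nr3c1. A mean lower by 1 on the log2 scale thus lies within the interval of Fkbp5, Sgk1, Tsc22d3 and Dusp1 and outside that of Klf9 and Nr3c1. Without 37I1 the differences were -1.31 (SE 0.4662) for Fkbp5, -0.80 (SE 0.210) for Tsc22d3, -0.70 (SE 0.387) for Sgk1, -0.57 (SE 0.138) for Klf9 and -0.74 (SE 0.315) for Dusp1. In that fit Klf9, Tsc22d3 and Fkbp5 had unadjusted p values of 0.00788, 0.0110 and 0.0351 in limma, where 3.61% of all genes were lower with an unadjusted p under 0.05. Without 31D3, 32D1, 50I1 and 52I4 in turn that share was 1.67%, 3.7%, 2.44% and 0.954% of all genes, and 0 of the 6 genes reached it. The adjusted p of Klf9, Tsc22d3 and Fkbp5 without 37I1 was 0.620 each. Without 52I4 the differences of Fkbp5 and Klf9 were -0.18 and -0.12, and without 50I1 they were -0.23 and -0.09. Without 50I1 those of Tsc22d3 and Dusp1 were -0.29 and -0.27.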

How the data were processed

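RNA of 5 total tumours and 5 biopsies was read on 10 Affymetrix rat arrays. The authors deposited 1 log2 signal per probe set and array, made with RMA (Robust Multichip Average) as the submitters' processing notes name it. This method corrects background and brings the arrays close to 1 distribution, which largely takes out any shift common to most transcripts. Deposited values ran from 2.34 to 14.26, hence the log2 scale. The RMA version is not given in the sources used here.

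Of 31099 probe sets, 57 controls and the dimmest 40% by mean signal (limit 5.15) were left out, which left 18625 probe sets and 10793 genes. Total tumour minus biopsy was tested with limma (version 3.58.1, R version 4.3.3), blocking on the tumour, since the labels name the same tumours in both groups and the series text states a paired test. Deviations from the group means correlated at 0.20 to 0.34 in 4 pairs and at -0.21 in 50I1, while those of different tumours ran from -0.51 to 0.36, so the pairing comes from the labels and not from these values. Benjamini-Hochberg adjustment ran over all tested probe sets, with a limit of 0.05, and the p-values rest on the scatter among 5 tumours. Named list genes were those with the smallest p, up to 3 a list (2 for immediate early and clock genes), and some named beforehand. Members and lists were chosen with earlier results of these data known. Alternatives were other filters, no block, the paired t-test, other limma settings, other normalizations, other probe set choices and leaving out each tumour. Promoters came from RefSeq (GRCr8). Figures were drawn with matplotlib 3.10.9.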

Additional observations from a re-analysis of the deposited data

Results flagged for a closer look

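Of 18 groups of 5 values screened, 1 held a value far from the others, and chance gives about 1 in 20. It was the difference of Klf9 in tumour 37I1, where the total tumour was higher by 1.07 on the log2 scale while the other 4 tumours lay between -0.86 and -0.33. The gap to the nearest tumour was 0.726 of the whole range, where 0.71 is the limit. The second probe set of Klf9 had the same sign there, with 0.48.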

How the results depend on the processing

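No probe set was called under any of the 14 alternatives run, where the lowest adjusted p lay between 0.236 (the paired t-test of the methods) and 0.9999 (without 52I4), and unadjusted calls numbered 570 to 2128. With no replicate block, 0 probe sets were called and the adjusted p of each of the 6 genes was 0.999. The signs of Fkbp5, Tsc22d3, Klf9, Dusp1 and Nr3c1 held in 15 of 15 alternatives, but not all of these could turn a sign. Other filters, no block, the paired t-test and a limma setting that changes only the variance leave the difference itself as it was. For Fkbp5, Tsc22d3 and Klf9 the probe set with the highest variance was also the one already used. Leaving out each tumour in turn moved Sgk1 between -0.70 and 0.13, and its sign turned to 0.133 without 50I1 and to 0.130 without 52I4. Over these fits the ranges were -1.31 to -0.18 for Fkbp5, -0.80 to -0.29 for Tsc22d3, -0.57 to -0.09 for Klf9, -0.74 to -0.27 for Dusp1 and 0.12 to 0.26 for Nr3c1. Among the other alternatives, array weights gave -0.78 for Dusp1, -1.17 for Fkbp5, -0.60 for Sgk1, -0.67 for Tsc22d3, -0.42 for Klf9 and 0.27 for Nr3c1. Their limma p was 0.0358 for Dusp1, 0.0349 for Tsc22d3 and 0.0466 for Nr3c1 unadjusted, and at least 0.544 adjusted for each of the 6. With array weights 1690 of all 18625 probe sets had an unadjusted p under 0.05, against 1133 in the main fit. The probe set with the highest variance gave 0.04 for Nr3c1. The median of the 6 genes was -0.39, and -0.72 without 37I1, -0.16 without 50I1, -0.15 without 52I4 and -0.64 with array weights. The median of the other induced genes was -0.03 without 37I1 and -0.05 with array weights. The cause of these shifts was not tested beyond the pair values given. Arrays in 5 pairs limit what the comparison can show, and a sum of several cell types limits what a signal can be assigned to.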
